A study of Homo sapiens with 4 samples.

Results

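The uroplakin genes are 6 of the 60766 features measured in this RNA-seq study of HCT116, an established human colon carcinoma line. They are UPK1A, UPK1B, UPK2, UPK3A, UPK3B and the UPK3B-like gene UPK3BL1, chosen by symbol, with 1 feature for each symbol. The 4 libraries comprised 2 from cells labelled control and 2 from cells labelled shARID1A, in which a short hairpin RNA lowers ARID1A, a subunit by which SWI/SNF chromatin remodellers bind DNA. The study asked how ARID1A relates to immune functions. All cells were grown in the same serum-containing medium, and no other allele or agent is given for either group. The hairpin's sequence, the number of hairpins and the kind of control are not given in the labels. Whether the replicates came from different cultures is not stated, so p-values measure only the spread between these libraries, and that spread may be technical.

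Uroplakins are membrane proteins of the urothelium, the lining of the bladder and ureters. UPK1A and UPK1B are tetraspanins, proteins with several membrane-spanning segments. UPK1A pairs with UPK2, and UPK1B pairs with UPK3A or UPK3B. The pairs leave the endoplasmic reticulum together and assemble into rigid plaques on the apical face of the umbrella cells, where they form part of the permeability barrier. UPK3B is also known as a gene of mesothelium, the lining of body cavities.

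ARID1A was 11.1 and 11.4 FPKM in the controls and 7.05 and 6.13 FPKM in the knockdown libraries, where FPKM is the number of fragments scaled by the length of the transcript and by sequencing depth. It fell by 0.69 on the log2(FPKM + 1) scale (SE 0.0774, limma adjusted p = 0.00438), so the target was reduced and still detected. From the steps in low values, the depth was estimated at 69000000 to 75500000 fragments per library. Of 12 markers of colon carcinoma epithelium, 7 were at 1 FPKM or more in every library, among them EPCAM, CDH1, KRT8 and CDX2. The other 5 were under 1 FPKM in every library, with CDX1 listed at 0 throughout and VIL1, CEACAM5, LGR5 and ASCL2 low. The markers that were present did not hold steady: EPCAM fell from 312 to 144 FPKM (log2 change -1.11, limma adjusted p = 3.63e-04), while CLDN4 rose from 102 to 209 FPKM (1.02) and KRT8 from 883 to 1430 FPKM (0.70). CDH1 and CDX2 did not pass.

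The letters before the transcribed locus are shown for 3 members, to set 1 that was much higher in the knockdown beside 2 that differed little. They come from RefSeq on GRCh38.p14, whose promoter table held 4 of the 6 members. Each run stops at the base before the locus that the files give, so it holds no base of that locus. The capitals mark a motif match.
UPK3B, chr7:76510302-76510427, plus strand: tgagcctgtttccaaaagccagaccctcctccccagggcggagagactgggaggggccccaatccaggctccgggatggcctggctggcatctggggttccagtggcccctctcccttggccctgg
UPK1A, chr19:35666267-35666515, plus strand: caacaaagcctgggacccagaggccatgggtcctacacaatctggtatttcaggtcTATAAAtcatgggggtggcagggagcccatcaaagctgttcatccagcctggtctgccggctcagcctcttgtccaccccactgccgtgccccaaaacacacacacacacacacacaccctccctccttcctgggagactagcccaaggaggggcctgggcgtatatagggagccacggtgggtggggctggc
UPK3BL1, chr7:102642792-102643041, minus strand: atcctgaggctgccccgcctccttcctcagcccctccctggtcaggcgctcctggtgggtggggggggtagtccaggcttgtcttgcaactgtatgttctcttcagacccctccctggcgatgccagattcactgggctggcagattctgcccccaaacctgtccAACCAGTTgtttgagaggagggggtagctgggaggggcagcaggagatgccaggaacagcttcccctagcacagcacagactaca

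In UPK1A the capitals are TATAAA, a match to the core letters of a TATA box, starting at position -194 from the RefSeq start. Only exact matches were marked, so the TATATA nearer the start in this run stays in lower case. Whether either acts as a TATA box was not tested. In UPK3BL1 they are AACCAGTT at position -85, a match to AACNNGTT, a relaxed form of the site bound by Grainyhead proteins. Across 35116 promoters of 300 bases (250 before and 50 after the start), searched on both strands, TATAAA occurred in 11.5% and AACNNGTT in 3.52%. The strict Grainyhead form AACCGGTT, which AACNNGTT includes, occurred in 0.134%, the GATA motif AGATAA in 10.3% and the direct repeat bound by PPAR with RXR in 0.0228%. None of these 5 motifs was in the 300 bases of UPK3B. That window held 2 CpG dinucleotides at 65.7% GC, and 11.0% of all promoters held fewer CpGs (median 14 CpGs, 58.7% GC). UPK1A held 4 CpGs, UPK3BL1 held 5 and UPK1B held 11. The UPK3BL1 promoter was identical at 290 of 290 aligned bases to that of its copy UPK3BL2. Between UPK3B and UPK3BL1, 105 of 287 bases (36.6%) were identical at the best ungapped shift.

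UPK3B and UPK2 were the members with higher FPKM in the knockdown, UPK3A was lower, and UPK1A, UPK1B and UPK3BL1 differed little or could not be compared. The family was chosen on this same contrast, so its values are a description and were not tested. UPK3B, a partner of UPK1B, lies at chr7:76510428-76516521 (GRCh38) and was 0.436 and 0.492 FPKM in the controls and 12.0 and 13.6 FPKM in the knockdown libraries. Both knockdown libraries were far above both controls. The means were 0.464 ± 0.0391 and 12.8 ± 1.19 FPKM (SD, n = 2), a difference of 3.23 on the log2(FPKM + 1) scale, which understates changes of low genes.

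UPK2, the small single-pass partner of UPK1A, lies at chr11:118925164-118958559. It was 0.181 and 0.339 FPKM in the controls and 6.0 and 6.48 FPKM in the knockdown libraries. Again the groups were well apart, with a log2 difference of 2.53. In approximate fragments, estimated from the depth and the longest coding transcript, UPK2 had 8 and 15 in the controls against 279 and 311 in the knockdown. UPK3B had 62 and 73 against 1872 and 2139. The control level of UPK2 thus rests on few fragments, and without control replicate 2 its ratio of means went from 24.0 to 34.5.

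UPK3A, the other partner of UPK1B, lies at chr22:45284949-45295874 and was 0.47 and 0.246 FPKM in the controls. In the knockdown libraries it was 0.0382 and 0.0339 FPKM. Both controls were above both knockdown libraries, opposite to UPK2 and UPK3B. The means were 0.358 ± 0.159 and 0.0361 ± 0.00309 FPKM (SD, n = 2), 9.92-fold lower in the knockdown. These values rest on about 24 and 13 fragments against 2 and 2. The ratio from these estimated fragments, summed over the 2 libraries of each group, was 9.94, control over knockdown. Its exact 95% interval of 3.57 to 38.4 covers counting error only. Since UPK3A was chosen on this contrast, the interval is a description and no test of a difference.

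UPK1A, the tetraspanin partner of UPK2, lies at chr19:35666516-35678483. It was 0.763 and 0.832 FPKM in the controls and 0.992 and 0.998 FPKM in the knockdown libraries. The groups did not overlap, but the ratio of means was 1.25. UPK1B, the tetraspanin partner of UPK3A and UPK3B, lies at chr3:119173517-119205143 and was listed at 0 in 1 library of each group. Its other values were 0.0168 FPKM in a control and 0.0195 FPKM in a knockdown library, about 2 and 3 fragments, so no fold is given. The partner UPK1B was therefore near 0 in the libraries where UPK3B was high.

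UPK3BL1, at chr7:102637025-102642791, was 1.79 and 1.22 FPKM in the controls and 1.36 and 1.41 FPKM in the knockdown libraries. The knockdown values lay between the controls. The ratio of means was 0.919, and it ranged from 0.774 to 1.13 when 1 library was left out, above 1 without control replicate 1. UPK3BL1 had the highest FPKM of the 6 in both controls.

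**Figure D1:**
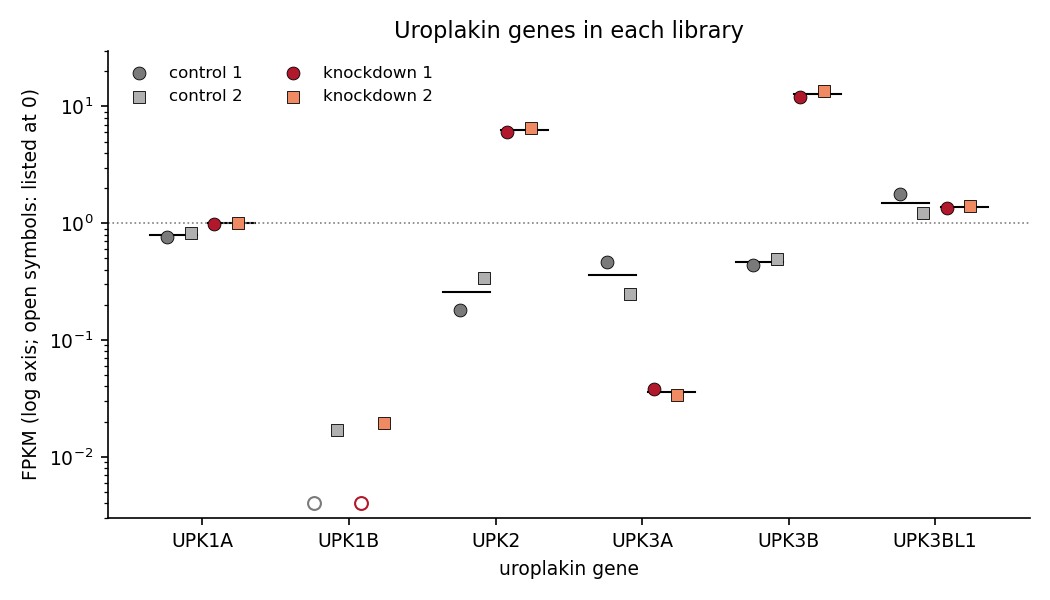
FPKM of each uroplakin gene (log axis) in the 2 control libraries (grey) and 2 knockdown libraries (red and orange), with bars for group means (none for UPK1B); open symbols are values listed at 0, drawn at the bottom; the dotted line is 1 FPKM. UPK2 and UPK3B are above 1 FPKM only in the knockdown libraries, and UPK3A is lower there.

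The members whose groups did not overlap were UPK1A, UPK2 and UPK3B on the higher side and UPK3A on the lower. Over all features, such separation was common: with a mean of at least 1 FPKM, 35.8% of features were higher without overlap and 36.5% lower. With a mean of 0.1 to 1 FPKM the shares were 21.6% and 25.1%. Since the members were chosen on this contrast, nothing is read from their number. UPK2, UPK3B and UPK3BL1 reached the mean of 1 FPKM used as filter, so 3 of the 6 did. UPK2 and UPK3B reached it only through the knockdown libraries. UPK1A, with a mean of 0.896 FPKM, was just under it.

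The order of the genes changed between the groups. In the controls the order by mean FPKM was UPK3BL1, UPK1A, UPK3B, UPK3A, UPK2 and UPK1B, where UPK3A overlapped both UPK3B and UPK2. In the knockdown libraries it was UPK3B, UPK2, UPK3BL1, UPK1A, UPK3A and UPK1B, and these 6 did not overlap in FPKM. Among features detected in any library, the same set for both groups, 47.5% were below UPK3B in the controls and 77.7% in the knockdown. For UPK2 the shares were 42.7% and 68.9%, and for UPK3A 45.4% and 24.3%.

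The summed FPKM of the 6 genes was 3.64 and 3.15 in the controls against 20.4 and 22.6 with knockdown, 6.33-fold higher by the means. UPK3B and UPK2 made up 17.0% and 26.4% of this sum in the controls against 88.3% and 89.1% with knockdown. The remaining 4 genes summed to 3.02 and 2.32 FPKM in the controls and 2.39 and 2.46 FPKM in the knockdown libraries. The higher sum was therefore made of those 2 genes. In these bulk samples, a change in the number of cells that express a gene and a change in its RNA per cell cannot be told apart.

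**Figure D2:**
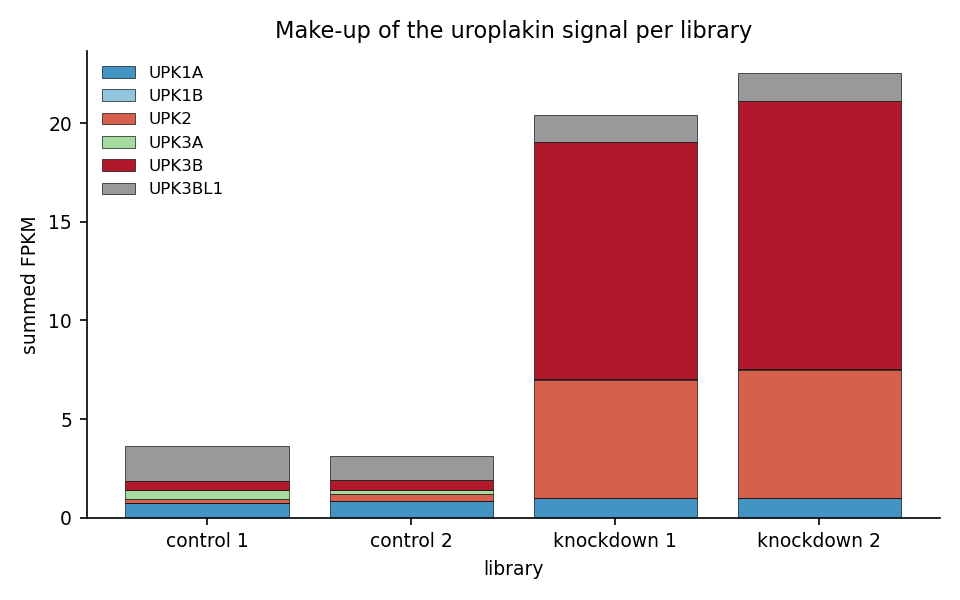
Summed FPKM of the 6 uroplakin genes in each library, with each gene's part coloured. UPK3B (dark red) and UPK2 (light red) fill 88.3% and 89.1% of the bars of the knockdown libraries, and UPK3BL1 (grey) is the tallest part in the controls.

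Several members share sequence or position with other genes, which bears on how far their values can be trusted. UPK3BL1 is the most affected: 98.2% of its 31-base windows (1288 of 1312) also occur in transcripts of other genes, with POLR2J3 sharing 1180 of them. Its value, and that of UPK3BL2 (0.34, 0.656, 0.337 and 0.647 FPKM, controls first), are therefore uncertain. The coding transcripts of UPK3B share 11.4% to 26.4% of windows, with UPK3BP1 and DTX2P1-UPK3BP1-PMS2P11. UPK3BP1, its pseudogene, was listed at 0, 0.0306, 0.0604 and 0 FPKM, so it was near 0 in every library. The level of DTX2P1-UPK3BP1-PMS2P11 was not examined here, so its part in the shared windows is not known.

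UPK3A and the coding transcript of UPK2 share 0% of windows. UPK1A transcripts share 15.6% to 21.2% of windows with other genes, 199 windows of each with UPK1A-AS1, its antisense gene, which overlaps 258 of its 1366 exon bases. UPK1A-AS1 was 4.43 and 5.08 FPKM in the controls and 4.95 and 4.47 FPKM in the knockdown libraries (log2 difference -0.01, SE 0.0913, limma adjusted p = 0.94). It was higher than UPK1A in every library. No source says that the kit keeps strand, so reads from the shared exon bases cannot be assigned to either gene.

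**Figure D3:**
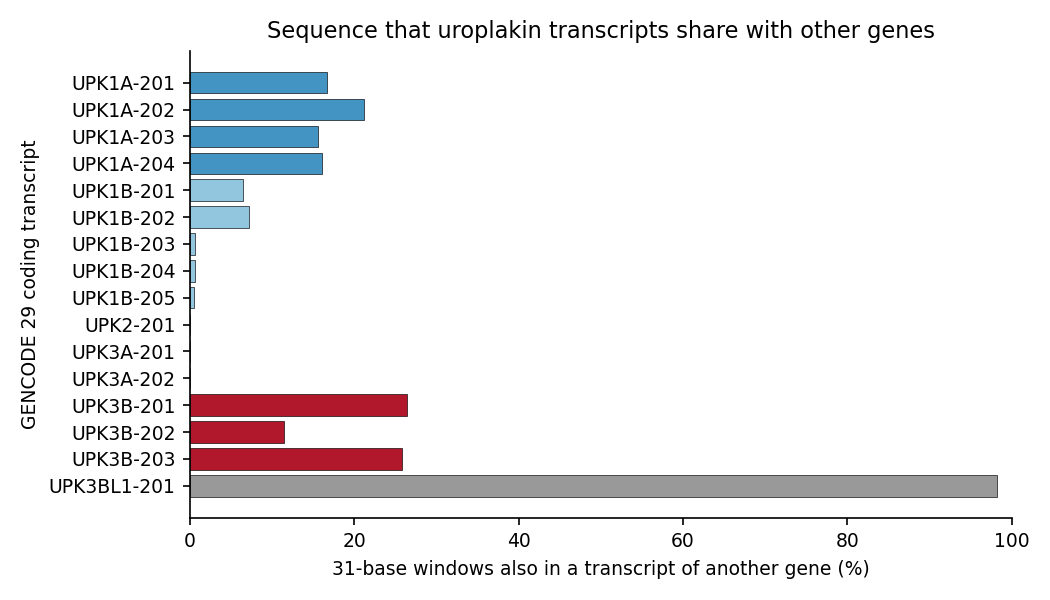
Percent of 31-base windows of each coding uroplakin transcript (GENCODE release 29) that also occur in a transcript of another gene. UPK3BL1 reaches 98.2%, while the coding transcripts of UPK2 and UPK3A are at 0.

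UPK2 overlaps the start of BCL9L, a gene for a coactivator of WNT signalling on the opposite strand. The loci share 445 bases, but the exons share 54, all within a noncoding transcript of UPK2. BCL9L was 22.2 ± 0.472 FPKM in the controls and 23.4 ± 0.557 FPKM in the knockdown libraries (SD, n = 2; log2 difference 0.07, limma adjusted p = 0.255). UPK2 also spans RN7SL688P, and its nearest features outside the locus are MIR4492 and AP004609.2, all listed at 0 in every library. UPK1B overlaps AC083800.1, likewise listed at 0.

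UPK3B overlaps no feature. DTX2, a gene for a ubiquitin ligase of the Deltex family that ends 4432 bases before it, was 7.84 and 8.14 FPKM in the controls and 9.68 and 11.1 FPKM in the knockdown libraries. It rose by 0.34 on the log2 scale (limma adjusted p = 0.0298). That call was lost without either control (adjusted p = 0.125 and 0.0981), without knockdown replicate 2 (0.0888) and with no filter (0.105). On the other side, AC004980.5 was listed at 0. UPK3BL1 lies within AC105052.4 and AC105052.1 and largely within AC105052.3, which shares 1156 of its 1342 exon bases.

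Within 250 kb of UPK3B, a window chosen after values were seen, 8 features were tested, of which 2 rose and 2 fell. Their log2 changes ran from -0.48 to 0.34. Around UPK2, 17 were tested, with 1 that rose and 6 that fell, from -0.45 to 0.42. Over all 13605 tested features, 18.2% rose and 18.9% fell. In both windows every tested neighbour moved less than the uroplakin gene. UPK3B and UPK2 were chosen on this contrast and ranked 6 and 12 from the top by log2 change among all tested features. Nearly any neighbour would therefore lie below them, and nothing is read from this. Around UPK3A 3 of 6 tested features fell and none rose. The call of 1 of these, FAM118A (limma adjusted p = 0.0336), was lost in several alternatives. Among them were no filter (0.0888), quantile normalization (0.0526) and the replicate block (0.052). Of 18 tested features around UPK1A, 1 rose and 2 fell. Of 13 around UPK3BL1, 2 fell and none rose, and neither of the 2 around UPK1B was called.

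**Figure D4:**
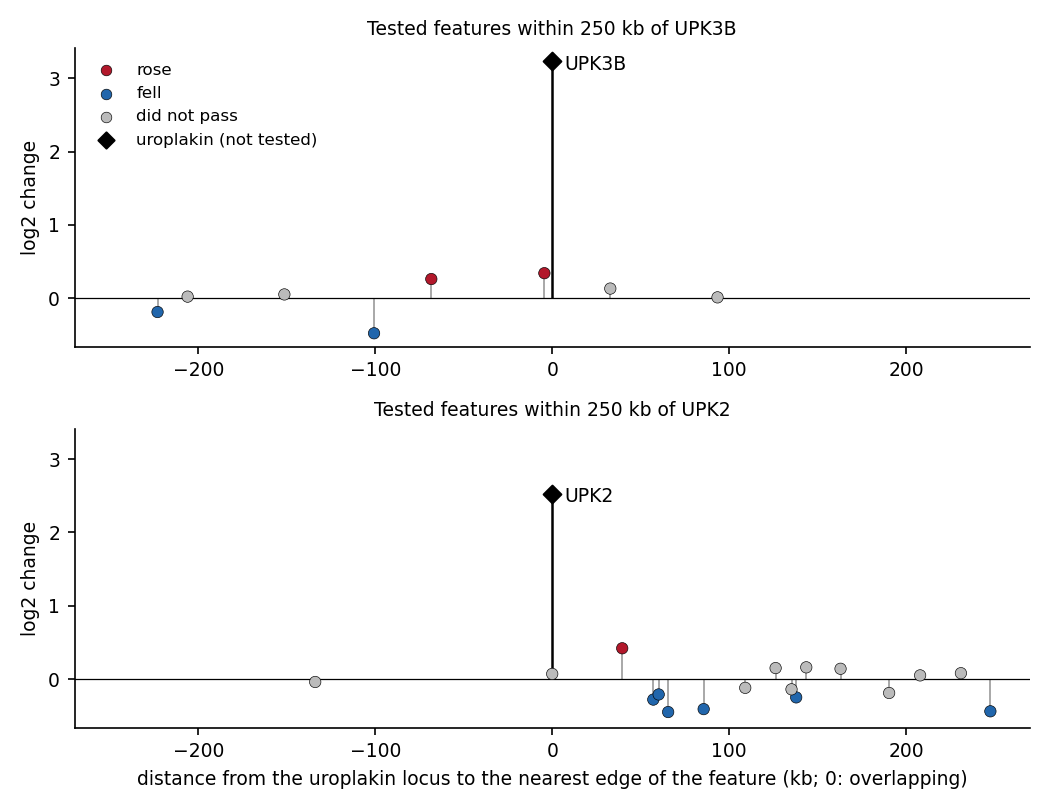
Log2 change (knockdown minus control, log2(FPKM + 1) scale) of tested features by distance in kb from the loci of UPK3B (top) and UPK2 (bottom), with the uroplakin gene itself as a diamond. The neighbours lie between -0.48 and 0.42. The diamonds, genes chosen on this contrast, lie at 3.23 and 2.53.

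Transcription factors and nuclear receptors known from urothelial differentiation form the first of 6 lists set beside the family. All 6 lists were chosen with earlier results of these data known. Their counts and medians are therefore a description, and no list was tested as a set. Of 15 tested members of this first list, 8 rose (53.3%), 1 fell (6.67%) and 6 did not pass, against 18.2% and 18.9% over all tested features. Called in either direction were 60% of the list and 37.1% of all tested features. The median log2 change was 0.22 against -0.003 over all tested features. With quantile normalization 10 rose and none fell. GRHL3, a Grainyhead factor needed for umbrella cell differentiation, was 0.224 and 0.171 FPKM in the controls and 17.9 and 18.0 FPKM in the knockdown libraries. It rose by 3.98 on the log2 scale (limma adjusted p = 1.67e-04), and its locus overlaps STPG1. GRHL3 reached the filter only through the knockdown libraries. With a filter at a mean of 0.1 FPKM, which either group reaches alone, its adjusted p was 4.6e-04. Without it 7 of 14 rose, a count added after seeing the data. TBX3, a T-box repressor, rose from 2.9 to 9.52 FPKM (log2 change 1.43), and OVOL1, a zinc-finger factor of epithelia, from 6.68 to 16.3 FPKM (1.17).

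Others of this list are named after their values were seen. PPARG, the nuclear receptor used to induce uroplakins in cultured urothelial cells, was 22.2 and 21.5 FPKM in the controls and 34.4 and 31.1 FPKM in the knockdown libraries (log2 change 0.56, limma adjusted p = 0.00417). KLF5, a zinc-finger factor of bladder epithelium, rose from 32.9 to 71.0 FPKM (1.09). RARG, a retinoic acid receptor, rose from 32.8 to 61.1 FPKM (0.88). FOXA1, under the filter and not tested, was 0.754 and 1.01 FPKM in the controls and 0.427 and 0.392 FPKM in the knockdown libraries. Among those that did not pass were ELF3 (-0.05), GRHL1 (0.22) and GRHL2 (0.07), with limma adjusted p = 0.574, 0.0724 and 0.384. GATA3, a luminal factor, fell from 2.28 to 1.49 FPKM (-0.40, adjusted p = 0.0458), and this call was lost in 8 alternatives (adjusted p 0.0552 to 0.173), among them without any 1 of the 4 libraries.

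Genes of luminal urothelium, the upper layers that carry uroplakins, numbered 22, of which 17 were tested. Of these, 11 rose (64.7%), 2 fell (11.8%) and 4 did not pass (median log2 change 0.58), against 18.2% and 18.9% over all tested features. SNX31, VSIG2, HPGD, VGLL1 and TMPRSS2 were under the filter and not tested. Of those that rose, KRT8, KRT18 and KRT19 are also among the epithelial markers of the line. Without them 8 of 14 rose (median 0.565), and without PSCA and S100P, which reached the filter only through the knockdown libraries, 10 of 15 rose (median 0.47), both counts added after seeing the data. KRT20, a keratin of umbrella cells that intestinal epithelium also makes, was 2.01 and 2.42 FPKM in the controls and 14.3 and 13.5 FPKM in the knockdown libraries (log2 change 2.22, limma adjusted p = 3.95e-04). KRT13, a keratin of stratified epithelia, rose from 1.9 to 10.7 FPKM (2.01). ADIRF rose from 565 to 1320 FPKM (1.22), and its locus overlaps 3 other features, ADIRF-AS1, AGAP11 and MMRN2. The members that fell, named after their values were seen, were DHRS2, a short-chain dehydrogenase (-0.85), and XBP1, a factor of the unfolded protein response (-0.35, adjusted p = 0.0369). The call of XBP1 was lost in 6 alternatives, without control replicate 2 (0.119) and without either knockdown library (0.0639 and 0.118) among them.

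Genes of basal urothelium, the layer next to the basement membrane, moved both ways. Of 10 tested, 4 rose (40%), 3 fell (30%) and 3 did not pass (median log2 change -0.05), against 18.2% and 18.9% over all tested features. Under the filter and not tested, KRT5 went from 0.107 to 0.599 FPKM, KRT14 from 0.179 to 0.756 and KRT6A from 0.0423 to 0.151. KRT16 went from 0.894 to 0.697 FPKM and KRT17 from 0.5 to 0.394, while KRT6B and DSG3 were near 0. With a filter at a mean of 0.1 FPKM, 6 of 14 rose and 3 fell. COL17A1, a hemidesmosome collagen, rose from 1.38 to 6.95 FPKM (1.74). ITGB4, its integrin partner, rose from 109 to 218 FPKM (0.99), with a locus that overlaps GALK1. CDH3, P-cadherin, fell from 94.2 to 52.5 FPKM (-0.83).

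The tetraspanins outside the uroplakins, the wider family of UPK1A and UPK1B, fell more often than they rose. Of those tested, 41.7% fell and 4.17% rose, against 18.9% and 18.2% over all tested features. Of 24 tested, 1 rose, 10 fell and 13 did not pass (median log2 change -0.18), and without either control 5 were called. TSPAN5, which helps the protease ADAM10 mature, fell from 40.7 to 20.1 FPKM (-0.98). TSPAN18 fell from 15.1 to 9.62 FPKM (-0.60) and TSPAN31 from 23.1 to 16.1 FPKM (-0.50). The locus of TSPAN18 overlaps TP53I11, and that of TSPAN31 overlaps AGAP2 and CDK4, so these values are less certain. TSPAN17, the member that rose, was named after its values were seen (0.28, limma adjusted p = 0.0176), and its call was lost without control replicate 2 (0.0867) or knockdown replicate 2 (0.0612).

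Vesicle trafficking genes include those that carry uroplakin vesicles to the apical membrane. Of those tested, 46.7% rose and 6.67% fell, against 18.2% and 18.9% over all tested features. Of 15 tested, 7 rose, 1 fell and 7 did not pass (median log2 change 0.13), and without control replicate 1 5 were called in all. VAMP8, a SNARE protein of fusing vesicles, rose from 67.4 to 101 FPKM (0.57). STX3, an apical syntaxin, rose from 19.4 to 27.9 FPKM (0.50), with a locus that overlaps FABP5P7. RAB27B, a GTPase of uroplakin vesicles, fell from 1.67 to 0.851 FPKM (-0.53, limma adjusted p = 0.0217). That call was lost when any 1 library was left out (adjusted p 0.062 to 0.104) and with no filter (0.0591). RAB27B reached the filter only through the controls. With a filter at 0.1 FPKM, which either group reaches alone, its adjusted p was 0.0196, and without it none of 14 fell.

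Mesothelial markers were listed because UPK3B is also a mesothelial gene. Of 12, 4 were tested, with 1 that rose, 2 that fell and 1 that did not pass (median log2 change -0.08). Over all tested features 18.2% rose and 18.9% fell. CALB2, calretinin, fell from 12.2 to 4.29 FPKM (-1.32, limma adjusted p = 7.35e-04). MSLN, mesothelin, fell from 36.4 to 30.9 FPKM (-0.23, adjusted p = 0.0363) and PODXL rose from 22.9 to 26.8 FPKM (0.22, adjusted p = 0.0172). The call of MSLN was lost in 6 alternatives (0.0515 to 0.149), among them without either control or knockdown replicate 1, and that of PODXL without any 1 library (0.0564 to 0.0936). The other 8 were under 1 FPKM in every library, and BNC1 and HP were listed at 0 throughout. The summed FPKM of all 12 was 73.4 to 75.0 in the controls and 63.3 to 66.6 in the knockdown libraries. This sum was mostly MSLN, PODXL and CALB2, so it says little of the low markers. Among the low markers, named after their values were seen, ANXA8 (mean 0.0258 to 0.226 FPKM) and CRB2 (0.0171 to 0.0517 FPKM) were higher in the knockdown without overlap. LRRN4 (0.0995 to 0.0476 FPKM) was lower without overlap, and the groups of the rest overlapped.

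**Figure D5:**
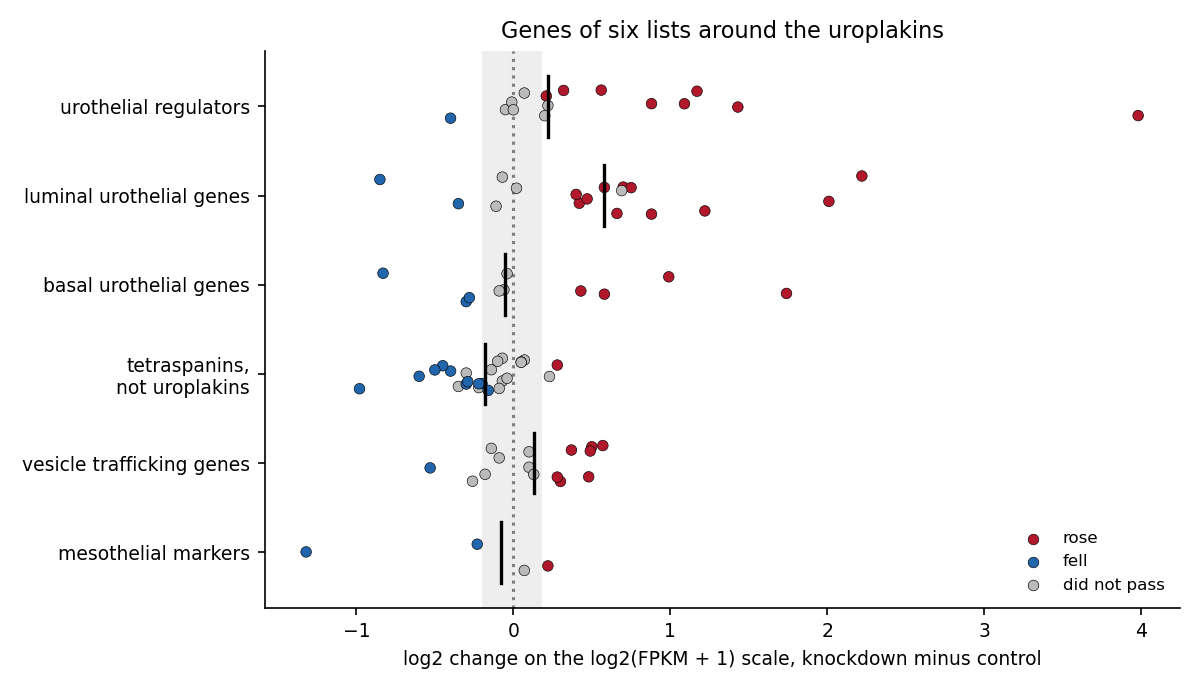
Log2 change (knockdown minus control, log2(FPKM + 1) scale) of the tested genes of 6 lists, coloured by whether they rose, fell or did not pass a limma adjusted p of 0.05. Black bars are list medians, the dotted line is the median of all tested features and the band their middle range. Luminal genes have the highest median, 0.58, among lists that were chosen with earlier results of these data known.

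Markers of other cells were low. All 8 leukocyte markers were under 1 FPKM in every library, with CD3E, MS4A1, TYROBP and NKG7 listed at 0, and summed to 1.01 to 1.19 FPKM in the controls and 0.533 to 0.76 FPKM in the knockdown libraries. All 5 endothelial markers were under 1 FPKM as well. Of 6 fibroblast markers 5 were under 1 FPKM, and the sum, mostly COL1A1, was 3.77 to 5.01 FPKM in the controls and 6.15 to 6.43 FPKM in the knockdown libraries. The part of these sums in the uroplakin values was not tested.

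The tested features nearest to each member over the 4 libraries, by Euclidean distance between centred log2(FPKM + 1) values, are a description. For UPK2 they were IFI27 (0.176), SCG2 (0.214) and IFIT1 (0.249). For UPK3B they were GAST (0.513), IFI6 (0.546) and SCG2 (0.584). This scale shrinks changes of low genes, so near features need not have like folds. By the ratio of means UPK2 was 24.0-fold higher, against 6.26 for IFI27, 7.06 for SCG2 and 5.99 for IFIT1. UPK3B was 27.6-fold higher, against 12.6 for GAST and 6.54 for IFI6. UPK2 was the fifth nearest to UPK3B (0.717) and GRHL3 the sixth (0.765). Seen from UPK2, UPK3B was only number 17 in order of distance (0.717) and GRHL3 number 94 (1.47). For UPK3BL1, whose values hardly separated the groups, they were TLN2 (0.0225), TUT4 (0.0243) and TRIM39 (0.0323).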

How the data were processed

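RNA-seq libraries of total RNA from 2 control and 2 shARID1A HCT116 samples were made with a NEBNext Ultra kit, per the labels' protocols. For each library the authors deposited FPKM values, per the file headers. The tools were STAR and Cufflinks and the build GRCh38, per the submitters' processing notes. Their versions, the annotation and the strand setting were not given in the sources used here.

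Of 60811 rows, 45 second copies of X and Y pseudoautosomal genes were dropped, and 2347 values under 1e-09 were set to 0. Knockdown was compared with control by limma 3.58.1 in R 4.3.3 (lmFit, eBayes with trend) on log2(FPKM + 1) for the 13605 features with a mean of at least 1 FPKM. A feature was called at a Benjamini-Hochberg adjusted p under 0.05. The scripts were tested on simulated data. Depth was estimated from transcripts of at least 1500 bases: 77.9% to 80.1% of values of 8 fragments or fewer lay within 0.1 of a whole one, where chance gives 20%. These estimates were not used in a count model. Exons and transcript windows came from GENCODE release 29, whose locus differs from the files' for UPK1B and UPK3A.

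Members and lists were chosen with earlier results of these data known. The genes named were the members, other UPK symbols, ARID1A, overlapping and adjacent features, in each list the 3 called members that changed most, or fewer, and the 3 features nearest to each member that reached 1 FPKM; others are said to be named after their values were seen. Alternatives were pseudocount, filter, quantile normalization or rescaling, replicate block and leaving out each library.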

Additional observations from a re-analysis of the deposited data

How the results depend on the processing

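With no filter 2786 genes were called rather than 5046, as more low features were tested. Leaving out 1 library gave 2146 to 3368 calls over all tested genes, 5 to 10 for tetraspanins, 5 to 7 for trafficking genes and 1 to 2 for mesothelial markers; the lone remaining sample of a group is then assumed to vary like the other group. For the other lists these counts were 6 to 7 (regulators), 12 to 13 (luminal) and 5 to 6 (basal).

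Leaving out 1 library gave ratios of means, knockdown over control, of 18.4 to 34.5 for UPK2, 0.0767 to 0.147 for UPK3A, 25.8 to 29.4 for UPK3B, 1.2 to 1.3 for UPK1A and 0.774 to 1.13 for UPK3BL1, which crossed 1. With a pseudocount of 0.1 the log2 differences were 4.17 for UPK2, 4.51 for UPK3B, -1.71 for UPK3A and 0.29 for UPK1A, since a smaller pseudocount shrinks low values less.

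Same-numbered samples did not deviate together (correlation -0.00993 across genes), so the replicate numbers give no pairing. A fit with the replicate block called 4126 genes over all, 8 regulators, 12 luminal genes, 7 basal genes, 10 tetraspanins, 8 trafficking genes and 2 mesothelial markers. Of the single-gene values under the alternatives (932), 76 lost a call and 5 gained one. A change of sign was counted as a reversal only for called genes, a limit set after values were seen, and 0 called genes changed sign. Among uncalled values 15 did, in 9 genes: UPK3BL1, UPK1A-AS1, ELF3, IRF1, NR2F6, CYP2J2, DSC3, TSPAN1 and CD9; the difference of UPK1B is 0 at the 2 decimals given and ranged from -0.01 to 0.02 with 1 library left out. With 2 libraries a group, and few fragments for UPK1B, UPK3A and the controls of UPK2, small differences between members were not detectable.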
